A study of Drosophila melanogaster with 266 samples.

Results

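The genes described here are the temporal patterning factors sloppy paired 1 (slp1), sloppy paired 2 (slp2), Dichaete (D), tailless (tll), klumpfuss (klu), odd paired (opa), earmuff (erm) and Ets at 65A (Ets65A), chosen by name. These 8 genes were all present among the 13931 coding genes of the deposited tables, and all 8 were among the 12377 genes for which the authors modeled expression states. They were followed through 46 adult neuron types of Drosophila melanogaster, comprising 23 medulla types, 11 lamina types and 12 lobula complex types.

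Temporal patterning is the process by which a neural stem cell, the neuroblast, makes different neurons as it ages. In the larval outer proliferation center, medulla neuroblasts switch through a sequence of transcription factors, and the factor present at a division helps to set the fate of the neurons born from it. Some of these proteins are passed on to the newborn neurons and some are switched off, so a gene of the cascade may or may not be transcribed in the adult cell. Lamina monopolar neurons have another origin, the lamina precursor cells, while C2, C3, T4 and T5 neurons come from the inner proliferation center, whose neuroblasts pass through a sequence with D and tll. Opa and Erm are zinc finger proteins, Klu is a zinc finger protein related to the WT1 and EGR families, Ets65A has an ETS domain, the Slp proteins are forkhead factors, D is an HMG box protein of the Sox family and Tll is an orphan nuclear receptor.

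The series profiled nuclear RNA of genetically labelled cells from adult heads, or from wings and appendages for muscle. GAL4 or split-GAL4 drivers, each 1 fly line, expressed the nuclear envelope reporter UNC84-2XGFP (10XUAS_UNC84_attP2), so every library of nuclei, those of the central brain types included, carries this transgene, and nuclei were isolated by INTACT (one capture of tagged nuclei) or TAPIN (tandem affinity purification of intact nuclei). Of 266 libraries, 203 passed the authors' quality control, including 53 of medulla types, 26 of lamina types and 34 of lobula complex types, with 2 to 4 libraries a type. Lamina and the optic lobe left after its removal were also dissected by hand from 2 fly lines for which no reporter is given, with 4 libraries each, and T4 and T5 nuclei labelled by 1 driver were taken from males and from females, with 2 libraries each. The study calls replicate libraries biological, while the labels do not say whether those of a type came from separate cultures of flies, so the spread given here may be partly technical.

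The neuronal marker nSyb was on in all 46 types, brp in 45 (off in T1, 30.3 ± 4.28 TPM, SD, n = 2) and elav in 29, though no type averaged under 407 TPM of elav. Of the 11 lamina types, elav was on in 1. The summed level of these markers ranged from 1618 to 9409 TPM (kallisto abundance corrected for transcript length and scaled to a fixed total over coding genes) over the 113 libraries of these types. Between 8642 and 13221 genes were detected in a passing library, and depth is unknown because the files hold no counts. The protocol followed the class: all 11 lamina types had INTACT libraries, 7 of 23 medulla types did, and the 12 lobula complex and 12 central brain types had only TAPIN libraries. The 12 mock capture libraries, made for example without a driver or with other beads, had medians between 0 and 18.7 TPM for the 8 genes, but single control libraries reached 640.5 TPM for D, 668 TPM for erm, 173 TPM for klu and 110 TPM for opa. The highest control values were 73.4 TPM for slp2 and 60.9 TPM for Ets65A. Some drivers also label other cells, often few and weakly, and the main cases are named beside the values.

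Every one of the 8 genes was called on in at least 1 of the 46 adult types, where 81.6% of all modeled genes were. A gene was called on in a type when the authors' mixture model gave it a probability of at least 0.8, off at 0.2 or below, and ambiguous between these. Opa, erm, Ets65A, klu, D and tll, or 6 of 8, were on in at least 1 medulla type, against 77.5% of all modeled genes. In the lamina 5 of 8 were on in at least 1 type (68.0% of all modeled genes), and in the lobula complex 3 of 8 (66.9%). On calls were sparse within the types: 47 of 368 combinations of gene and type were on, or 12.8%, against 50.2% over all modeled genes, and 3 were ambiguous.

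**Figure D1:**
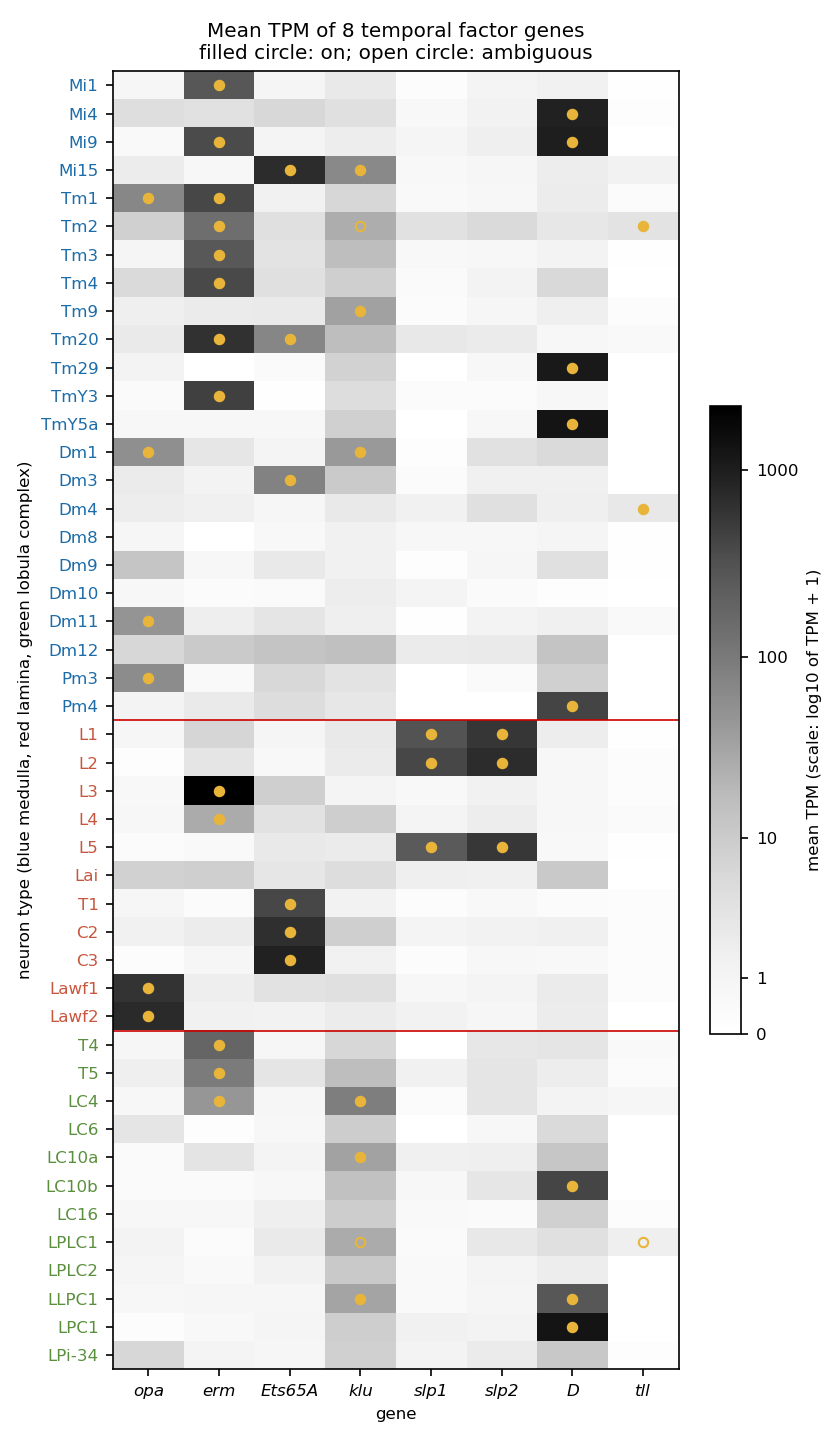
Mean TPM of the 8 genes (columns) in 46 neuron types (rows), shaded by the log10 of TPM plus 1, with medulla types on top, lamina types in the middle and lobula complex types at the bottom. Filled circles mark the 47 on calls and open circles the 3 ambiguous ones; slp1 and slp2 have filled circles only in L1, L2 and L5.

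Most medulla types had 1 of the 8 genes on. Of the 23 medulla types, 13 had 1 gene on, 6 had 2 and 4 had none, so 19 had at least 1. The 4 types without any of the 8 were all distal medulla neurons: Dm8, Dm9, Dm10 and Dm12. Another factor of the cascade, hth, was on in all 23 medulla types, these included. Of the 11 lamina types, 7 had 1 gene on, 3 had 2, and only Lai, the amacrine neuron, had 0. In the lobula complex 5 types had 1 gene on, LC4 and LLPC1 had 2, and LC6, LC16, LPLC1, LPLC2 and LPi-34 had 0. No type had 3 on. The 36 types with at least 1 gene on showed 15 different combinations.

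Apart from slp1 and slp2, the genes shared few cell types, each being on in only 2 to 13 of the 46. Of 28 gene pairs, 19 were never on together in the 46 types, 8 were on together in 1 type, and slp1 with slp2 were on together in 3. The shared types were Mi9 (D and erm), Mi15 (klu and Ets65A), Tm1 (opa and erm), Tm2 (tll and erm), Tm20 (erm and Ets65A), Dm1 (klu and opa), LC4 (klu and erm) and LLPC1 (D and klu). Across the 46 types, Pearson's r of mean log2(TPM + 1) was 0.97 for slp1 and slp2 and between -0.28 and 0.25 for the other 27 pairs. These are descriptions over types that share drivers' protocols and the composition of TPM values. The overlap of other genes on in as few types was not computed. The counts therefore do not show that the genes avoid each other.

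Opa, a homolog of the vertebrate Zic proteins and an early factor of the cascade, was on in 6 types at 2 separate levels. The wide-field neurons Lawf1 and Lawf2, which link medulla and lamina, had the highest values. Lawf1 had 562, 601, 612 and 618 TPM, and its INTACT driver averaged 609.5 TPM and its TAPIN driver 587 TPM. Lawf2 had 716 and 739 TPM. The libraries of Lawf1 and Lawf2 did not overlap, and neither overlapped any other type.

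In the medulla opa was on in Tm1 (65.9 and 71.9 TPM), Pm3 (58.4 and 59.5 TPM), Dm1 (53.6 and 53.9 TPM) and Dm11 (40.7 and 53.7 TPM). The mean of Lawf1 was 8.69 times that of Tm1, the highest medulla type. Dm11 and Dm1 overlapped, whereas the lowest library of Dm11 still stood above Dm9 (9.49 and 15.2 TPM), the highest type called off. No lobula complex type was on. The Tm1 driver also labels Lawf2 cells weakly; Fer2, a basic helix-loop-helix gene on in no type of the 46 but Lawf1 (418 ± 206 TPM, SD, n = 4) and Lawf2 (307 ± 9.90 TPM, n = 2), had 27.1 ± 2.84 TPM in Tm1 and 20.8 ± 24.9 TPM in Pm3 (n = 2 each), and the part of such cells in the opa value was not tested. The Dm1 driver also labels retinal pigment cells, and Pdh, a pigment cell gene, was on in Dm1 (1395 ± 127 TPM, n = 2). The part of these cells in the opa and klu values of Dm1 was not tested.

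Erm, the homolog of the vertebrate Fezf proteins, was the most widespread of the 8, on in 8 medulla, 2 lamina and 3 lobula complex types. Columnar medulla neurons made up the whole medulla group: Mi1, Mi9, Tm1, Tm2, Tm3, Tm4, Tm20 and TmY3. Tm20 was highest, with 543 and 691 TPM, and Tm2 lowest, with 130.1 and 148 TPM. Between them stood TmY3 (454 and 479 TPM), Tm1 (381 and 422 TPM), Tm4 (283 and 469.8 TPM), Mi9 (183, 362, 386 and 503 TPM), Mi1 (258 and 281 TPM) and Tm3 (249 and 275 TPM). Tm20 did not overlap TmY3, and TmY3 did not overlap Tm1, but from Tm1 down to Tm3 each type overlapped the next. The other Mi, Tm and TmY types, namely Mi4, Mi15, Tm9, Tm29 and TmY5a, were off. None of the 8 Dm types and neither of the Pm types was on.

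In the lamina erm marked L3, with 2158 and 2193 TPM, 3.53 times the mean of Tm20. L4 was called on at a probability of 0.83 from libraries of 11.1 and 42.9 TPM, of which only 1 was on by itself, and it was lost at a probability limit of 0.9. Of the direction-selective neurons, T4 (147, 148, 196 and 207 TPM) stood above T5 (34.9, 109, 109 and 129.8 TPM) without overlap. LC4 had 27.7 and 62.7 TPM. The 2 T4 drivers averaged 171 and 177 TPM and the 2 T5 drivers 71.9 and 119 TPM; T5 drivers also label some T4 cells weakly.

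Ets65A was on in 3 medulla and 3 lamina types and in no lobula complex type. Mi15 held 611, 715, 736 and 745 TPM, Dm3 58.9 and 94.9 TPM, and Tm20 65.7 and 74.9 TPM. In the lamina the centrifugal neurons C3 (901 and 905 TPM) and C2 (617 and 714 TPM) and the T1 neuron (378 and 412 TPM) were on. The order C3, Mi15, C2, T1 therefore mixed medulla and lamina types; C3 lay above Mi15, Mi15 overlapped C2, and T1 lay below C2 and 5.14 times above Dm3. Dm3 and Tm20 overlapped and stood 5.44 times above the next type, Dm12. The study also looked for a tagged Ets65A protein in some cell types, and only Tm20 and the epithelial glia differed from its calls. The protein was not detected in Tm20, was weak in Dm3, and in Mi15 was missing only from occasional cells. The Tm20 driver also labels some T1 neurons and retinal pigment cells; Pdh was on in Tm20 too (502 ± 55.3 TPM, n = 2), and the part of these cells in the Ets65A and erm values was not tested.

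Among the 46 types klu had its highest type, LC4, at a lower mean (88.6 TPM) than the highest type of any other member but tll, and its on and off states lay close together. The medulla types were Mi15 (58.7, 58.8, 64.0 and 76.5 TPM), Dm1 (38.8 and 44.5 TPM) and Tm9 (33.1 and 35.1 TPM), and the lobula complex types were LC4 (72.2 and 105.1 TPM), LC10a (30.4 and 35.4 TPM) and LLPC1 (30.1 and 33.99 TPM). No lamina type was on. Where every library had to be on by itself, Tm9, Dm1, LC10a and LLPC1 were lost. At a probability limit of 0.9, LC10a and LLPC1 were lost. Tm2 (23.4 and 26.7 TPM) and LPLC1 (14.8 and 39.1 TPM) were ambiguous, and Tm3, called off, averaged 16.1 TPM. In the authors' model the on level of klu was 54.7 TPM and the off level 4.93 TPM, 9.39 times apart on TPM plus 1. The same ratio was between 82.3 and 164 for slp1, slp2, D, opa, erm and Ets65A, and 3.74 for tll. These TPM values take the model's levels as natural logs, the base given in the methods, and assume that 1 TPM was added first.

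Both sloppy paired genes, forkhead genes of the middle of the cascade, were on in L1, L2 and L5 and off in all 23 medulla types (19.7% of all modeled genes were) and in all 12 lobula complex types (30.2%). The genes lie side by side on chromosome arm 2L (slp1 at 3825675 to 3827099 and slp2 at 3836840 to 3839185, both on the plus strand, 9740 bases apart, in dm6 coordinates). L2 had 384 and 401 TPM of slp1, L1 had 253, 269.5, 323 and 353 TPM, and L5 had 232 and 259.7 TPM. L2 stood above L1, whereas L1 and L5 overlapped. The next type was Tm2, at 2.68 and 4.89 TPM, from a driver that also labels some L2 cells.

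The slp2 values ran in parallel and were higher. L2 had 673 and 737 TPM, L1 had 526, 569, 574 and 597 TPM, and L5 had 526 and 569.8 TPM. L5 stood 101 times above the next type, which was again Tm2 (5.06 and 5.82 TPM). The ratio of slp2 to slp1 lay between 1.69 and 2.27 in all 12 libraries of L1, L2, L5 and the driver that labels L1 and L2 together. In the proximal satellite glia, however, slp2 was on (134, 179, 186 and 217 TPM) while slp1 was off (13.0 ± 6.47 TPM, n = 4), a ratio between 7.88 and 21.2 in the 4 libraries.

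**Figure D2:**
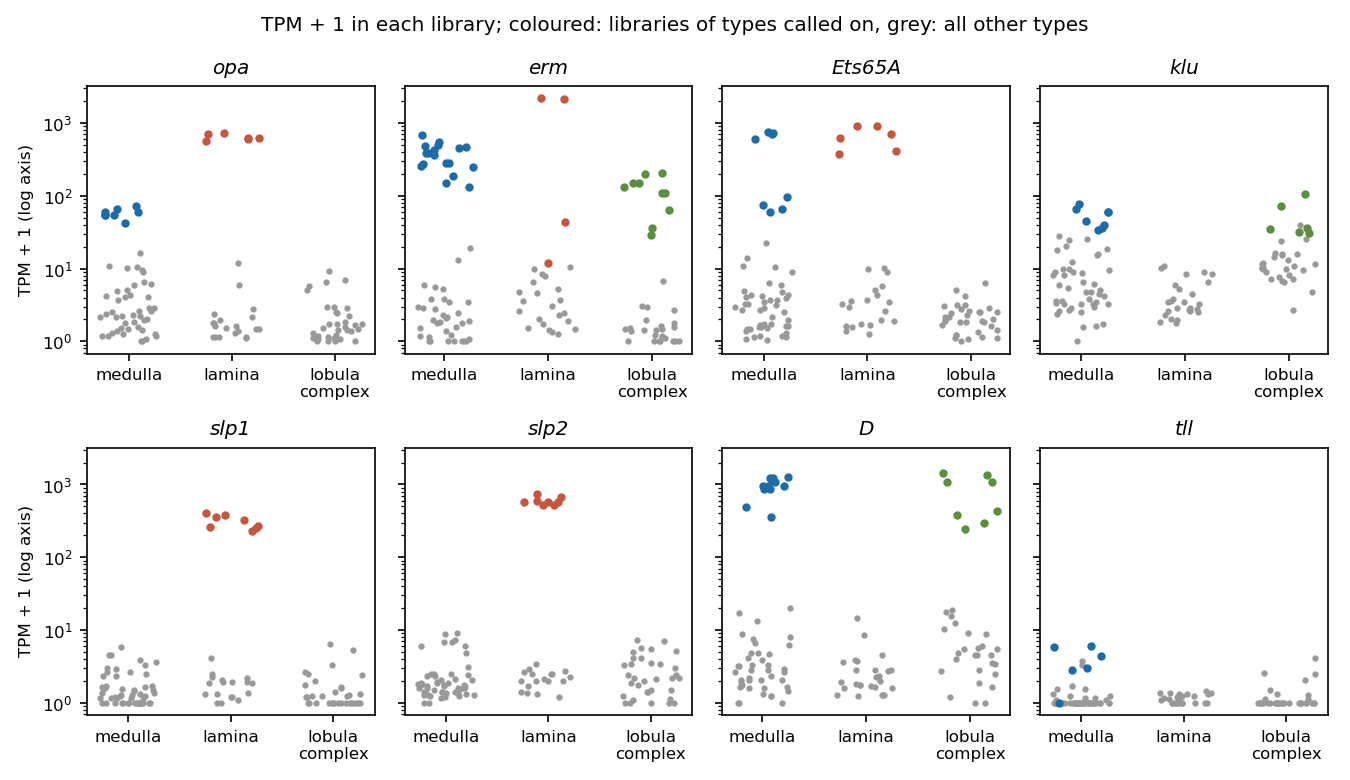
TPM plus 1 on a log axis for each of the 113 libraries, by gene and by class, in the order medulla, lamina, lobula complex, with random horizontal spread. Coloured points are libraries of types called on and grey points those of all other types; slp1 and slp2 are coloured only in the lamina, where the points lie at 232 TPM or more, and tll reaches at most 5.08 TPM.

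D, a Sox gene of the late cascade and of the inner proliferation center, was on in 5 medulla and 3 lobula complex types and off in all 11 lamina types, as were 29.5% of all modeled genes. The medulla types were TmY5a (1229 and 1268 TPM), Tm29 (1097 and 1125 TPM), Mi9 (866, 948, 958 and 1209 TPM), Mi4 (859 and 939.8 TPM) and Pm4 (353 and 489 TPM). In the lobula complex LPC1 reached 1079.7, 1082, 1347 and 1433 TPM, LC10b 379.6 and 436 TPM, and LLPC1 244 and 295 TPM. From TmY5a through LPC1, Tm29 and Mi9 to Mi4 each type overlapped the next in the order of means. Mi4 stood above Pm4, Pm4 overlapped LC10b, and LC10b stood above LLPC1, which was 21.1 times the mean of the next type. The lowest on library, in LLPC1, had 244 TPM, and the highest type called off, Dm12, had 7.13, 12.1 and 19.1 TPM. Mi9 drivers label an occasional Mi4 cell, a type that also has D on, and the Pm4 driver labels a few unidentified Tm cells.

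Tll, a late factor, stayed at or near 0 TPM. It was on in Tm2 (2.01 and 4.81 TPM) and Dm4 (0, 1.83, 3.36 and 5.08 TPM) and ambiguous in LPLC1 (0.14 and 3.19 TPM). The highest library of the 46 types had 5.08 TPM, and 72 of 113 libraries were listed at 0. The model's on level of 3.01 TPM was below the off level of klu, and under a limit of 10 TPM in the mean no type was on. Of the 4 libraries of Dm4, 3 were on by themselves. Depth is unknown, so these levels cannot be told from 0, and the on calls of tll rest on the model alone.

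Types profiled with more than 1 driver mostly gave the same states by each, and most of these states were off. For the 10 types with at least 2 drivers, 76 of 80 combinations of gene and type were in 1 state in every library. The exceptions were tll in Dm4, Mi15 and T4, and klu in T5, where the 2 libraries of 1 driver (23.02 and 24.7 TPM) were ambiguous. For tll in Mi15 the drivers disagreed: both libraries of 1 driver were off at 0 TPM. Both of the other were on, at 2.28 and 2.8 TPM.

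Differences among types within a class were tested with limma on log2(TPM + 1) over libraries, keeping genes at 10 TPM or more in at least 2 libraries. In the medulla 5 of the 8 genes passed this filter (D, klu, opa, erm and Ets65A), and all 5 differed among the 23 types, where 94.1% of all genes tested did. Adjusted p ranged from 2.9e-10 for klu to 7.1e-19 for D. In the lamina slp1, slp2, opa, erm and Ets65A passed the filter and differed among the 11 types (89.1% of all genes tested), and in the lobula complex D, klu and erm did (58.9% of all genes tested). The genes left out, among them slp1, slp2 and tll in the medulla, stayed under the filter. Since a gene passes the filter through the types where it is high, these counts say little beyond the background.

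Comparing the classes asked whether the 8 genes were higher in medulla types as a group, with each type's mean log2(TPM + 1) as 1 value. Against lamina types, slp1 and slp2 were the only genes of the 7 tested that passed, where 31.4% of all genes tested did and 26.4% were lower in the medulla. Both entered the test only through L1, L2 and L5, since no medulla type averaged 10 TPM of either, so the count of 2 supports nothing beyond these levels. Slp1 averaged 0.58 in medulla types and 2.80 in lamina types on this log2 scale, a difference of -2.22 ± 0.71 (SE, 23 and 11 types, limma adjusted p = 0.020), and slp2 averaged 0.99 in medulla types and 3.29 in lamina types (-2.29 ± 0.77, limma adjusted p = 0.025). The median difference over all genes tested was -0.35. Both calls rested on L1, L2 and L5: slp2 lost its call without any one of these, slp1 without L2 or L5 (limma adjusted p of 0.055 and 0.053), and with INTACT libraries alone limma adjusted p was 0.61 for slp1 and 0.62 for slp2.

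D averaged 3.33 in medulla types and 1.19 in lamina types (2.14 ± 1.04, limma adjusted p = 0.11) and klu 2.93 in medulla types and 1.92 in lamina types (1.02 ± 0.46, limma adjusted p = 0.083), and neither passed. With library values and the cell type as a random block both passed (limma adjusted p of 0.028 for D and 0.049 for klu). Of the 11 lamina types, 1 reached 10 TPM of D and 0 reached 10 TPM of klu. Opa, erm and Ets65A differed by -0.17 ± 0.88, 0.92 ± 1.19 and -1.50 ± 0.96. Against lobula complex types, none of the 5 genes tested passed, where 2.17% of all genes did; 2 of them, klu (-1.08 ± 0.46) and opa (1.33 ± 0.55), had an unadjusted p under 0.05 by limma. Against 12 central brain types, opa was 1.49 ± 0.55 higher in medulla types (2.25 in medulla types and 0.77 in central brain types, limma adjusted p = 0.027), the only 1 of 6 to pass, where 47.0% of all genes did and 42.3% were higher in the medulla. Opa entered that test only through medulla types, 5 of which averaged 10 TPM or more, while central brain types averaged at most 4.07 TPM. The median over all genes was 0.61 in that comparison, and with quantile normalization opa no longer passed (0.82, limma adjusted p = 0.28), nor with TAPIN libraries alone (1.48, limma adjusted p = 0.10).

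The dissected tissues gave a view that used no driver. Their libraries were of total RNA rather than of nuclei, so their levels are not directly comparable with those of the types. Slp1 had 47.5, 53.8, 62.0 and 62.8 TPM in dissected lamina, against 2.01, 2.34, 3.98 and 4.37 TPM in the remaining optic lobe. Slp2 had 152, 158, 169 and 177 TPM in dissected lamina, against 1.98, 2.88, 3.01 and 3.87 TPM in the remaining optic lobe. Neither gene's libraries overlapped between the tissues. In such tissue fewer cells of a type and less RNA per cell cannot be told apart. By limma, 6 of the 8 genes passed the filter on low values and all 6 differed, where 59.6% of all genes tested did, 14.2% being higher and 45.4% lower in the lamina. Slp1 and slp2 passed the filter only through the lamina and opa only through the optic lobe, so this count says little beyond the background. On the log2(TPM + 1) scale slp1 was 3.82 ± 0.23 higher in the lamina (SE, limma adjusted p = 2.6e-06) and slp2 5.41 ± 0.17 higher (limma adjusted p = 7.5e-08).

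Markers of other cell types also differed between the tissues, all those named here at a limma adjusted p of 0.025 or less. Both glia markers were higher in the lamina (repo by 1.82 and moody by 2.63 on the log2 scale), with a summed level of 247 to 470 TPM in dissected lamina, against 67.4 to 83.3 TPM in the remaining optic lobe. All 3 photoreceptor markers were higher (2.26 to 6.14, ninaE most), with summed levels of 4726 to 10341 TPM in dissected lamina, against 100 to 137 TPM in the remaining optic lobe, and Pdh was 3.50 higher. All 3 neuronal markers were lower (-0.33 to -0.51), at 2686 to 3199 TPM in dissected lamina, against 3733 to 4111 TPM in the remaining optic lobe. None of these markers was at 0 in either tissue. Slp2 was on in the proximal satellite glia of the lamina, as given above, and the part of other cell types in the differences of the members was not tested.

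Erm, on in L3 and L4 among lamina types and in some columnar neurons of the medulla, was the third gene higher in dissected lamina. It had 64.9, 99.8, 104.6 and 119 TPM in dissected lamina, against 57.2, 61.2, 61.3 and 64.8 TPM in the remaining optic lobe, a difference of 0.63 ± 0.18 (limma adjusted p = 0.013). Its lowest lamina library stood just above the highest optic lobe library.

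D, opa and Ets65A were lower in dissected lamina. Among the types classed here as lamina, opa was nonetheless on in Lawf1 and Lawf2, and Ets65A in C2, C3 and T1. The reason was not tested. D had 2.64, 3.91, 22.5 and 40.8 TPM in dissected lamina, against 154, 156, 156 and 159 TPM in the remaining optic lobe (-3.77 ± 0.69, limma adjusted p = 0.0016). Opa had 2.02, 3.09, 4.96 and 9.78 TPM in dissected lamina, against 48.6, 51.1, 59.0 and 61.1 TPM in the remaining optic lobe (-3.39 ± 0.35, limma adjusted p = 6.1e-05). Ets65A had 14.6, 23.5, 26.6 and 34.1 TPM in dissected lamina, against 64.2, 68.4, 70.4 and 72.7 TPM in the remaining optic lobe (-1.50 ± 0.22, limma adjusted p = 0.00046). In each fly line replicate 2 was the higher for D, opa and Ets65A. The median difference over all genes tested was -0.47, and each of the 6 kept its direction under quantile normalization. Klu and tll did not pass the filter.

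**Figure D3:**
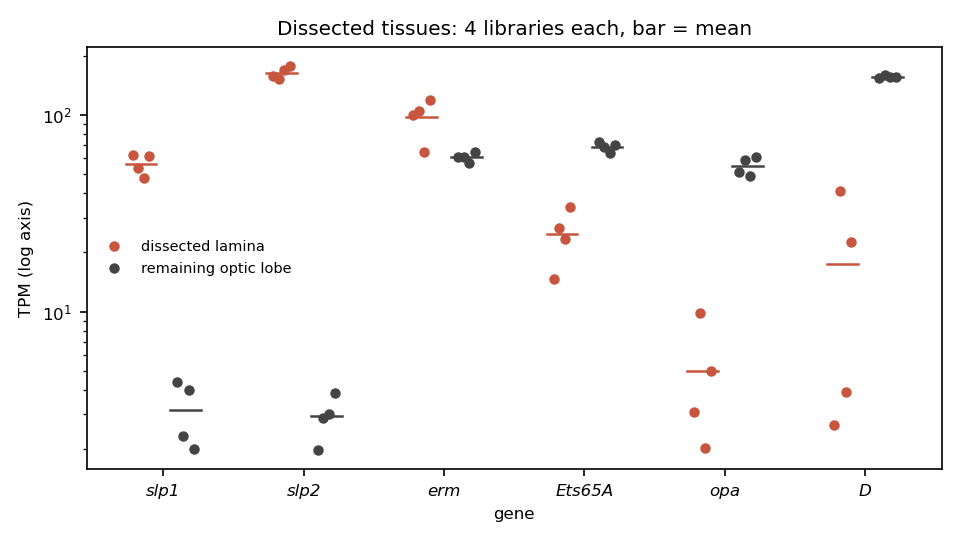
TPM on a log axis of 6 genes in dissected lamina (left of each pair, 4 libraries) and the remaining optic lobe (right, 4 libraries), with bars at the means. Slp1, slp2 and erm lie higher in the lamina and Ets65A, opa and D lower, with no overlap between the tissues for any of the 6. The share of all genes without such overlap was not computed.

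Between males and females, erm and klu were the only genes of the 8 to pass the filter in T4 and T5 nuclei. Erm had 84.0 and 188 TPM in males, against 94.1 and 187 TPM in females, and the sexes overlapped (-0.08 ± 0.49 on the log2(TPM + 1) scale, SE). Neither gene passed by limma (2 libraries each, smallest unadjusted p 0.78, where 0% of all 6329 genes tested passed), so that a difference was not detectable here.

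The closest match in expression to slp1, slp2, D and Ets65A was in each case a gene nearby on the chromosome, which for slp1 and slp2 was the other of the pair. Likeness was the Pearson r of mean log2(TPM + 1) over the 46 types, among 9536 genes that reached 10 TPM in at least 2 types, and it rests largely on the few types where a gene is on. By Spearman's correlation slp2 for slp1 and the match of D were also among the 3 closest. The matches of slp2 and Ets65A were not. D was followed most closely by Sox21b (r = 0.98), another Sox gene, which lies 44285 bases away on arm 3L. Sox21b was on in 8 of the 46 types, the same 8 as D, from 203 ± 9.69 TPM in LLPC1 (n = 2) to 702 ± 35.2 TPM in Mi9 (n = 4). Ets65A was followed by l(3)mbn (r = 0.91), whose end lies 20 bases from that of Ets65A on the opposite strand. L(3)mbn was on in 5 types that also had Ets65A on, at 24.8 ± 3.55 TPM in Mi15 (n = 4), 21.3 ± 5.50 TPM in C2, 20.6 ± 0.870 TPM in C3, 8.67 ± 2.10 TPM in Tm20 and 5.46 ± 2.02 TPM in Dm3 (n = 2 each), but it was off in T1 (2.73 ± 0.198 TPM, n = 2). No strand setting of the counting was given in the sources used here, and reads running past the end of one of these genes into the other cannot be told apart; the same holds for the 1 gene on the opposite strand that overlaps Ets65A and the 1 that overlaps erm.

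**Figure D4:**
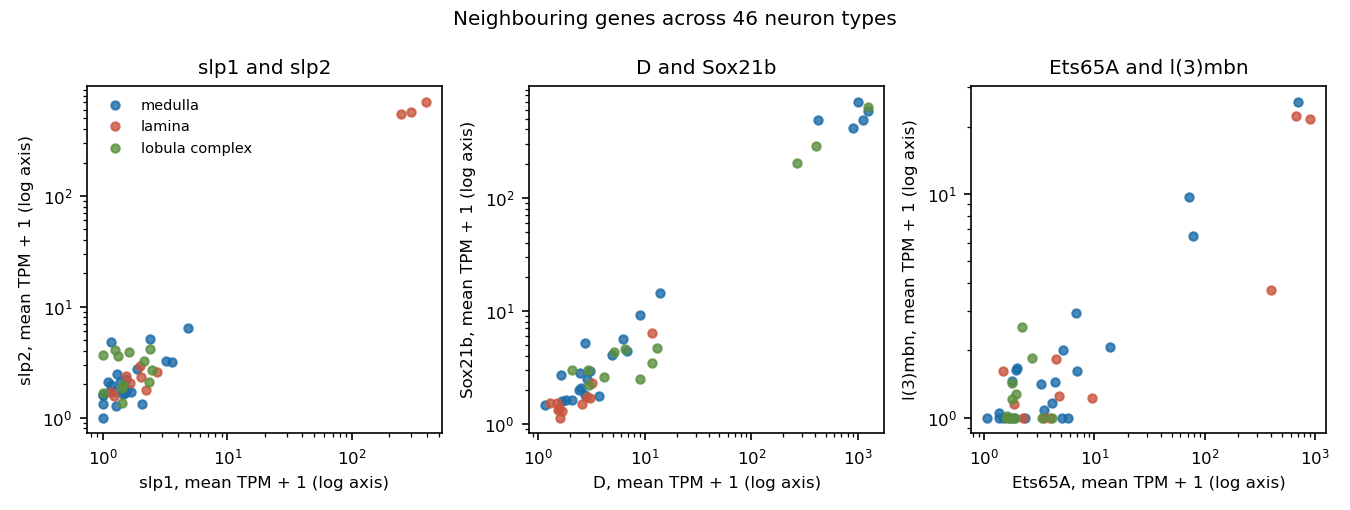
Mean TPM plus 1 (both axes log) of neighbouring genes in 46 neuron types: slp1 against slp2, D against Sox21b, and Ets65A against l(3)mbn, coloured by class (blue medulla, red lamina, green lobula complex). The on types stand apart at the upper right, 3 for slp1 and slp2 and 8 for D and Sox21b, and for Ets65A the T1 point lies low on the l(3)mbn axis at 2.73 TPM.

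The next most similar genes were farther away. For D these were CG6123 (r = 0.66) and ey (r = 0.59), itself a factor of the cascade; for Ets65A they were Dll (r = 0.75), the homeobox gene Distal-less, and NijC (r = 0.57). Slp1 and slp2 shared CG18598 (r = 0.75 and 0.77), followed by CG15332 for slp1 (r = 0.71) and sas for slp2 (r = 0.70). Opa was followed by Fer2 (r = 0.81), eya (r = 0.68) and the clock gene tim (r = 0.65), erm by CG11263 (0.62), CG14117 (0.62) and CG11060 (0.60), klu by Cyp4d20 (0.66), beat-Vb (0.65) and mei-218 (0.64), and tll by pb (0.58), Tpl94D (0.57) and CG12826 (0.56).

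The estimated shares of the transcripts of D and Ets65A differed between types, and no test of these shares was run. D-RC made up 93.2% of the TPM of D over the 20 libraries of on types, but its share was 69.1% ± 4.85 in Mi4 and 61.4% ± 3.53 in LLPC1, against 99.8% ± 0.0969 in Mi9 (SD, n = 4) and 99.7% ± 0.236 in LPC1 (n = 4; n = 2 in Mi4 and LLPC1). Most of the rest was D-RB. D-RC and D-RB start at the same base and differ only in where they end. The part of uneven coverage at that end in these shares was not tested. For Ets65A the short transcript RB, which starts inside the gene, took 43.7% of the TPM. Its share was 56.4% ± 0.144 in T1, against 33.8% ± 0.152 in C2 and 30.2% ± 0.747 in C3 (n = 2 each). The libraries of Mi15 (43.3 to 64.65%, n = 4) and Tm20 (38.6 to 59.0%, n = 2) spanned those of T1. The other 4 transcripts had the same value in each library and could not be separated. Erm-RB took 89.6% of the TPM of erm and klu-RD 100% of that of klu, and slp1, slp2, opa and tll were quantified as 1 transcript each.

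**Figure D5:**
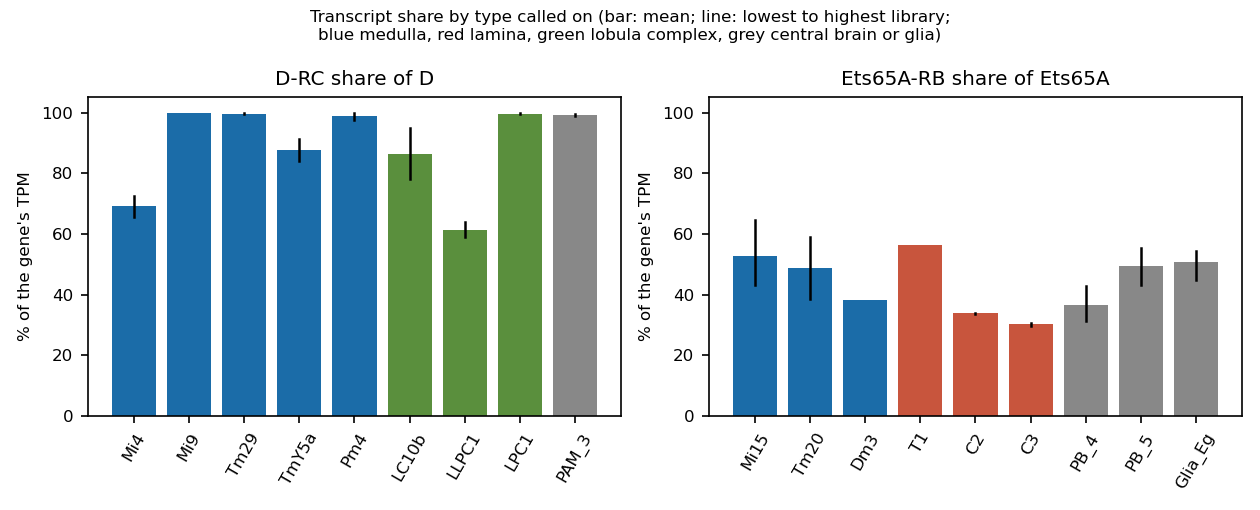
Share of the TPM of D taken by D-RC (left) and of Ets65A taken by Ets65A-RB (right), in percent, for each type called on. Bars are means and lines run from the lowest to the highest library; D-RC is lowest in LLPC1 and Mi4, and Ets65A-RB is highest in T1 and lowest in C3.

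Among the 9 other factors listed for the cascade (hth, ey, hbn, scro, B-H1, B-H2, SoxN, dmrt99B and gcm), 7 were on in at least 1 medulla type, 4 in a lamina type and 4 in a lobula complex type. The counts that follow are over the 46 types. Hth was on in all 46 types, SoxN in 28 and scro in 23. Ey was on in 6 of these types, all of the medulla, namely Mi4, Dm10, TmY5a, Pm4, Tm29 and Mi9, at means between 117 and 1653 TPM; all 5 medulla types with D on were among these 6, while the 3 lobula complex types with D on had ey off. Ey was also on in 4 of the 12 central brain types, all Kenyon cells, at up to 1205 TPM, and in head muscle. Hbn was on in 7 medulla and 6 lamina types, T1 being highest (664 TPM), dmrt99B in LC16, LC6 and LLPC1, and B-H1 and B-H2 in Dm1 and Tm20 at 5.92 to 18.9 TPM. Dm1 and Tm20 are the 2 types whose drivers label pigment cells and that had Pdh on, and single mock capture libraries reached 15.7 TPM of B-H1 and 13.9 TPM of B-H2. The part of pigment cells in these values was not tested. Gcm was not among the modeled genes, and its highest library had 5.40 TPM. Of the 7 tested between medulla and lamina types, ey (2.54) and hth (1.22) were higher in the medulla (limma adjusted p = 0.020 and 0.049), where 31.4% of all genes tested passed in either direction. Hbn (-2.40 ± 0.98, limma adjusted p = 0.059) and SoxN (-1.31 ± 0.95) did not pass.

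Of the 5 neuronal identity factors, ap was on in 16 of the 46 types, toy in 13, vvl in 5, bsh in 4 and run in 1, Mi4 (257 TPM). Run was also on in the central brain types PB_4 (371 to 443 TPM, n = 4) and PB_5 (312 and 346 TPM). The neuroblast genes dpn, ase, wor, mira and stg stayed near 0: their summed level was 0.79 to 27.2 TPM over the 113 libraries, with a median of 5.11 TPM, and of the 3 that were modeled (ase, mira and stg) only stg was called on, in Tm2 and Dm9 at 13.7 and 5.87 TPM. Ase was ambiguous in Dm11 (4.42 ± 3.03 TPM, n = 2) and Mi15 (3.42 ± 1.86 TPM, n = 4), and dpn and wor have no on or off state.

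Outside the optic lobe neurons, erm was on in the dopaminergic PAM_3 (272 and 361 TPM), PAM_1 (88.5 and 159.5 TPM) and PAM_4 (49.6 and 63.1 TPM) neurons and in PB_3 (51.6 and 51.8 TPM), klu in PAM_1 (192 and 229 TPM) and PAM_4 (65.1 and 81.0 TPM) and both muscle types (149 and 170 TPM in appendages, 62.5 and 83.5 TPM in heads), and Ets65A in PB_5 (296 and 311 TPM), PB_4 (90.5, 131, 263 and 274 TPM) and the epithelial glia (108 to 208 TPM, n = 6). Tll was on in appendage muscle (2.21 and 10.3 TPM), above its highest optic lobe type in the mean. In the epithelial glia the study did not detect a tagged Ets65A protein. The muscle drivers also label some non-muscle cells. The study assigns some unidentified non-neuronal cells to the PAM_4 driver. In PAM_4 the glial gene moody was on (614 ± 184 TPM, n = 2), repo had 0.63 ± 0.88 TPM and elav was off (575 ± 153 TPM), and the part of such cells in the erm and klu values was not tested. The driver notes also list Tm1, a type with erm on, beside PAM_1. The PB_3 driver also labels many optic lobe cells, Mi1 among them. Bsh, a homeobox gene of Mi1, had 425 ± 30.1 TPM in PB_3 and 694 ± 21.9 TPM in Mi1 (n = 2 each), and the part of Mi1 cells in the erm value of PB_3 was not tested. D was on in PAM_3 (59.9 and 65.2 TPM). None of the 8 genes was on in any of the 4 photoreceptor types, and 6 of the 12 central brain types, all 4 Kenyon cell types among them, had none on.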

How the data were processed

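Transcript abundances were estimated by the authors with kallisto 0.43.1 (dm6, per the submitters' processing notes; Ensembl transcripts), summed per gene and rescaled to a fixed total over coding genes, and deposited as TPM; TPM keeps no depth. The authors also deposited, as a fraction between 0 and 1, the model's probability that a gene is expressed in a library or cell type. The level of each model component was deposited by the authors as a score on a natural log scale, as the cutoffs in their methods show. On and off were set at 0.8 and 0.2, as the study did. From passing libraries only, means and SDs were computed per cell type (all 536 means of a member in a type came within 0.011 TPM of the deposited means). Fits used limma 3.58.1 in R 4.3.3 on log2(TPM + 1), with a trend, over all genes at 10 TPM or more in at least 2 libraries or types, with Benjamini-Hochberg adjustment and a threshold of 0.05. The fits were tested on simulated data. Class comparisons used 1 mean per cell type, and differences within a class used libraries. In class comparisons, log2 differences understate the change of low genes because of the pseudocount of 1 TPM.

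The named genes are the 8 members, the other cascade and identity factors that are on in at least 1 type, and for each member the 3 genes with the highest Pearson r. The members and lists were chosen with earlier results of these data known. Driver notes are those of the study. Positions are from a later Ensembl release (dm6). No replicate pair held identical values. Columns of library quality and the authors' other summaries were not used, and no sequences are shown because no sequence table of these genes was used here.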

Additional observations from a re-analysis of the deposited data

Results flagged for a closer look

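Some libraries that did not pass the authors' quality control, and so entered no comparison, held members above 10 TPM and above every mock capture library. Opa had 332.66 TPM in replicate 2 of the lLNv clock neurons, while replicate 1 had 54.93 TPM. Ets65A had 159.08 and 154.64 TPM in the 2 libraries of PB_6, and 234.0 and 349.32 TPM in replicates 3 and 4 of the NPF driver, whose 2 passing libraries had 115.1 and 157 TPM. No library stood apart from its group in the 29 groups of 4 to 6 libraries examined for this.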

How the results depend on the processing

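Counts of members called among medulla types, among lamina types and between dissected tissues were each 7 without the filter on low values, and were otherwise the same (5, 5 and 6) under every alternative run, as were the counts among lobula complex types (3) and between sexes (0). Between medulla and lamina types the count of 2 became 4 with library values and cell type as a random block (D and klu added, limma adjusted p = 0.028 and 0.049), 0 with sub-optimal libraries included and 0 with INTACT libraries only, and was 0 to 2 when 1 type was left out (0 without L2 or L5, 1 without L1). Against lobula complex types it became 1 with sub-optimal libraries (opa). Against central brain types it became 0 with a pseudocount of 10, with quantile normalization and with TAPIN libraries only. Of the 24 most similar genes, 4 were also among the 3 closest by Spearman's correlation.

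Differences that did not pass changed sign as follows, and the cause was not tested. Between medulla and lamina types opa became 0.16 with a pseudocount of 0.1, and with L1 to L5 alone opa became 1.73, erm -0.59 and Ets65A 0.54. Against central brain types slp2 became 0.35 and Ets65A 0.12 with a pseudocount of 0.1, and 0.13 and 0.26 with sub-optimal libraries. Leaving out 1 type gave opa -0.40 to 0.54 against lamina types, D -0.87 to 0.025 against lobula complex types, and klu -0.17 to 0.40 and Ets65A -0.46 to 0.40 against central brain types; leaving out 1 library, with the lone sample of a sex assumed to vary like the others, gave erm -0.65 to 0.50 and klu -0.48 to 0.20 between sexes. The 47 on calls became 50 at a probability of 0.5, 44 at 0.9, 61 at a mean of 10 TPM, 38 at 50 TPM and 41 where every library had to be on.

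With replicate number as a block the calls stayed at 5 in the medulla, 5 in the lamina, 3 in the lobula complex, 6 between dissected tissues and 0 between sexes. Dissected libraries of the same fly line and number, which formed the block, correlated at 0.15, -0.0017, 0.078 and 0.11; the labels give them a shared fly line but no shared dissection, and adding fly line to the fit left the 6 calls. Depth is unknown, so levels of a few TPM, as for tll, cannot be told from 0.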
